A study of Mus musculus with 16 samples.

Results

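The 7 genes described here were Zscan4b, Zscan4c, Zscan4d, Zscan4e, Zscan4f, Tcstv1 and Tcstv3, chosen by name as genes of the 2-cell-like state. All 7 had a row among the 22552 genes of the expression table. RNA had been sequenced from 16 pluripotent mouse cell lines, with 1 library per line, so a line is the replicate and the p-values measure only the spread between lines. The AN lines were nuclear transfer embryonic stem cells (ntESCs), grown from blastocysts that received the nucleus of an adipocyte progenitor cell (APC), and the AI lines were induced pluripotent stem cells (iPSCs), made from APCs with doxycycline. All lines carried the 129-M2rtTA background, and their APCs came from mice made wholly of an earlier iPSC line, which already held the doxycycline-inducible factors. In the study's methods, F stands for full and P for partial reprogramming, as scored by tetraploid complementation, in which a line has to build a whole animal inside a tetraploid host embryo. The fully reprogrammed ntESC lines (AN F) were AN1, AN9, AN15 and AN20, and the partially reprogrammed ones (AN P) were AN2, AN3, AN5, AN6 and AN7. Among the iPSC lines, GS32, AI3, AI7 and AI10 were full (AI F) and GS4, GS9 and AI9 partial (AI P). The GS lines had been identified earlier and the others were newly derived. The labelled passage was 5 to 7 in the AN lines, 7 in the newly derived AI lines, 6 in GS9, 13 in GS32 and 17 in GS4. The source entries of GS9 and GS32 name GS4, against their titles, so these lines are called by title here.

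Zscan4 genes encode proteins with a SCAN domain and zinc fingers that are made when the embryonic genome switches on in the 2-cell mouse embryo. In cultures of pluripotent cells they come on in a small and changing minority of cells, the 2-cell-like cells, and they are known for a role in telomere upkeep and genome stability. Tcstv1 and Tcstv3 are further genes of the 2-cell embryo that are co-expressed with Zscan4 in such cells. The transcription factor Dux switches this programme on, while chromatin repressors such as Trim28, Kdm1a and the histone chaperone Chaf1a hold it down.

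The Zscan4 genes are near copies of each other, which limits how far reads can be assigned to any one of them. In the mouse genome build mm9, the 5 genes lie on chr7:11486098-11988090, a stretch of 501993 bases. Zscan4b (chr7:11486098-11490399), Zscan4d (chr7:11746992-11751497) and Zscan4e (chr7:11891727-11896031) lie on the minus strand, and Zscan4c (chr7:11591071-11595896) and Zscan4f (chr7:11983264-11988090) on the plus strand. The longest transcript of each has 4 exons. Their coding sequences were 96.4% to 99.7% identical in pairs. Of the 50-base windows of each transcript, the length of the reads, 90.5% in Zscan4b, 76.7% in Zscan4c, 47.2% in Zscan4d, 91.6% in Zscan4e and 79.2% in Zscan4f also occurred in another of the 5. For Zscan4f the share reached 97.8% with the pseudogene Zscan4-ps2 included. The first 50 coding bases show such a window, in which all 5 genes are the same, while coding bases 607 to 656 show the window in which they differ most, with 4 distinct sequences. Both are numbered from the first base of the start codon in Zscan4c and printed on the coding strand, and capitals mark the bases that differ from Zscan4c.
All 5 genes, coding bases 1 to 50: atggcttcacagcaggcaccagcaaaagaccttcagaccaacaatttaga
Zscan4b: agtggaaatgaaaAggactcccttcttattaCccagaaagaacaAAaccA
Zscan4c: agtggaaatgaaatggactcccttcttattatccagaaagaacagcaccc
Zscan4d: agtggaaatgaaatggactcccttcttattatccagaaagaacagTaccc
Zscan4e: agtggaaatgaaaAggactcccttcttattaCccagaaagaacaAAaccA
Zscan4f: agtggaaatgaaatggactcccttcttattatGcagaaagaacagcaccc
In this most different window, Zscan4b and Zscan4e had the same sequence, so a read from it could not tell them apart. Of the 1472 windows compared along the coding sequence, 258 (17.5%) were identical in all 5 genes. The levels are therefore given for each gene as deposited and for the genes summed.

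The start regions of the genes were also close to each other, and they are shown because the members moved together. RefSeq windows in build GRCm38.p6, from 250 bases before to 50 bases after the start of transcription, were found for 4 members. They lie at chr7:10905001-10905300 (minus strand) for Zscan4b, chr7:11005495-11005794 (plus) for Zscan4c, chr7:11166099-11166398 (minus) for Zscan4d and chr7:11397665-11397964 (plus) for Zscan4f. Capitals mark the 8 bases TGATTCAA, taken from the motif that mouse Dux is known to bind, searched on both strands.
Zscan4b: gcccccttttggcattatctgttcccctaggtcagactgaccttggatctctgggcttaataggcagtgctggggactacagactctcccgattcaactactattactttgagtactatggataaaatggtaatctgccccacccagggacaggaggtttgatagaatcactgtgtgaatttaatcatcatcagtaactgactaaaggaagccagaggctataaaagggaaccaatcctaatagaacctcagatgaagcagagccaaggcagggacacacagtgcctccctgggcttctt
Zscan4c: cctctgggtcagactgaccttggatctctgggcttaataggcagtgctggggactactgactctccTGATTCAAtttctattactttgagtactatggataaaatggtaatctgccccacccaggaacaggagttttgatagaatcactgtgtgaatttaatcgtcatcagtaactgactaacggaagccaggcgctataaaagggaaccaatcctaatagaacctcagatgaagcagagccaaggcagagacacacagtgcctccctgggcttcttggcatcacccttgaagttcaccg
Zscan4d: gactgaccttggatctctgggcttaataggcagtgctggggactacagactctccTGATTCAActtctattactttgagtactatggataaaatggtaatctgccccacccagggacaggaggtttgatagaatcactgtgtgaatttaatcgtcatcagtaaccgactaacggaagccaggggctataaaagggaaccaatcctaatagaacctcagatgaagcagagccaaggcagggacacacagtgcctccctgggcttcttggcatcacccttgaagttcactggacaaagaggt
Zscan4f: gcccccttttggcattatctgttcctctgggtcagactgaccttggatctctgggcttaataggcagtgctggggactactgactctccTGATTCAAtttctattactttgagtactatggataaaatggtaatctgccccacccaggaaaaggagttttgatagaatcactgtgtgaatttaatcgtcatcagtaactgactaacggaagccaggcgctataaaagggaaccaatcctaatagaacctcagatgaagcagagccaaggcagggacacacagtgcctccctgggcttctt
These windows were 95.3% to 99.3% identical in pairs. The letters TGATTCAA stood 184 bases before the start in Zscan4c, 195 in Zscan4d and 161 in Zscan4f, and were not in the Zscan4b window. Among all 32851 RefSeq windows of this length, 191 (0.581%) held these letters on either strand. The letters TGCACACA, which contain a sequence that Zscan4 protein is known to bind, were in 0 of the 4 windows and in 1.85% of all windows. The matches describe the letters of these windows only.

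Zscan4 transcripts were found in all 16 lines, at the highest level in the line GS4. FPKM is the number of reads of a gene scaled to the length of its transcript and to the reads of the library. The summed FPKM of the members was 29.5 in GS4, 11.4 in AN20, 11.3 in AN7 and 10.1 in AN15. It was 5.40 in AI7, 5.31 in AN3, 4.86 in AN9, 4.07 in AI9 and 3.95 in GS9. It was 1.99 in GS32, 1.32 in AI10, 1.30 in AN6, 1.16 in AN2, 0.869 in AN5, 0.544 in AI3 and 0.478 in AN1. GS4 thus lay 2.59-fold above the next line, 7.37-fold above the median of all lines (4.01) and 61.8-fold above AN1. The highest and the lowest line were a partially reprogrammed iPSC line and a fully reprogrammed ntESC line. Because each library is bulk RNA, more 2-cell-like cells and more Zscan4 RNA per such cell cannot be told apart.

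**Figure D1:**
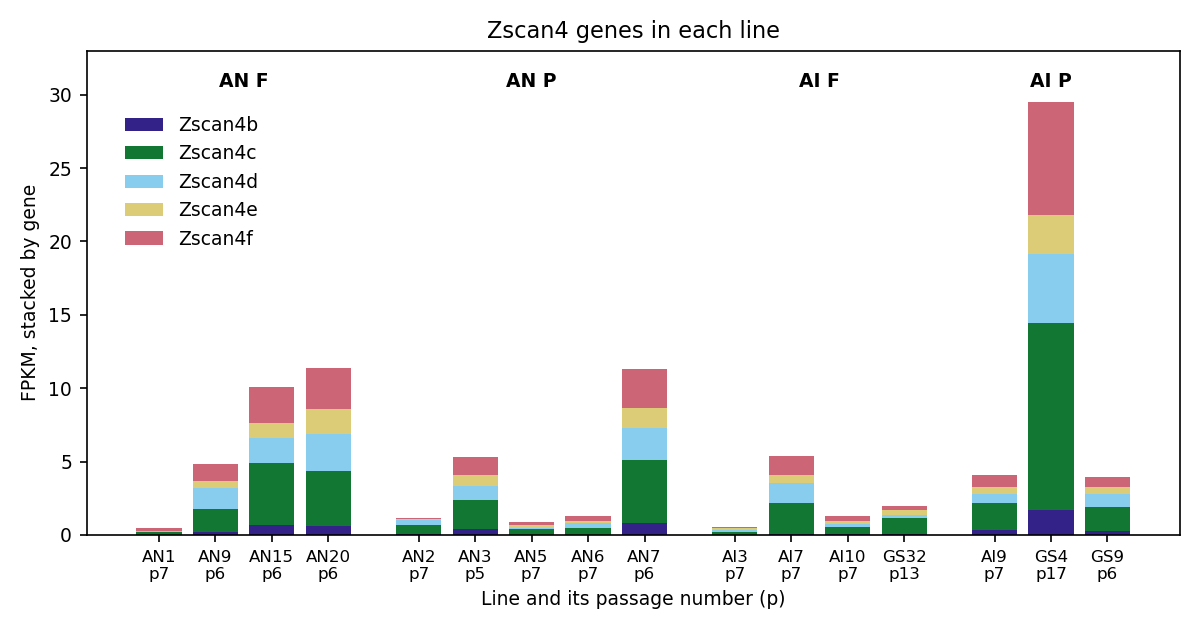
FPKM of the 5 Zscan4 genes (y axis, linear, stacked by gene) in each of the 16 lines (x axis, with the labelled passage), ordered by group. GS4 reached a sum of 29.5, the lines AN15, AN20 and AN7 lay between 10.1 and 11.4, and the other 12 lines lay at 5.40 or below.

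Zscan4c, the member best known in cultured embryonic stem cells, was the most abundant of the 5 by mean FPKM. Over the 16 lines the mean FPKM was 2.34 for Zscan4c, 1.40 for Zscan4f, 1.12 for Zscan4d, 0.654 for Zscan4e and 0.338 for Zscan4b. For 1 read in AN1, FPKM times the listed transcript length in kilobases was 0.0573 for Zscan4f and 0.0454 to 0.0463 for the others. Relative to the others, Zscan4f was thus scaled to a shorter length than listed, and its margin over Zscan4d depends on that length. Zscan4c made up 31.8% to 51.8% of the summed FPKM of a line (median 39.6%). The median share was 23.8% for Zscan4f, 19.0% for Zscan4d, 11.3% for Zscan4e and 5.39% for Zscan4b. GS4 was the highest line for each of the 5 genes, by 2.99-fold over the second line for Zscan4c, 2.75-fold for Zscan4f, 2.03-fold for Zscan4b, 1.86-fold for Zscan4d and 1.57-fold for Zscan4e. Across lines the 10 pairs of Zscan4 genes had Pearson's r of 0.903 to 0.981 on the log2(FPKM + 1) scale (n = 16), and 0.844 to 0.972 without GS4. The values of a pair come from the same libraries and from near-identical sequences.

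Tcstv1 and Tcstv3 were listed at 0 in all 16 lines, including GS4. Of all rows, 2614 of the 22552 rows were 0 in every line, among them 8 of 68 core histone genes, so the entry says only that these genes are listed at 0.

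Once scaled by the relative depth of each line, the deposited FPKM values of each Zscan4 gene were whole multiples of 1 step, which gives the reads behind them. The scaled values divided by the step came within 0.0016 of a whole number for all 5 genes, with no sign of reads split into fractions between the copies. A read counted in full at each copy it matches would also give whole numbers. The summed reads may therefore hold the same read more than once. The 5 genes together had 1667 reads in GS4, 594 in AN20, 529 in AN7, 457 in AN15, 267 in AN3, 232 in AI7, 230 in AN9, 226 in AI9 and 170 in GS9. They had 104 reads in GS32, 68 in AI10, 60 in AN6, 52 in AN2, 39 in AN5, 24 in AI3 and 21 in AN1. Zscan4b rested on 80 reads in GS4 but on 1 read each in AN1, AN5 and AN6 and on 0 in AI3. Scaled to the depth of AN1, the exact 95% Poisson interval was 1259.95 to 1388 reads in GS4 and 13.0 to 32.1 in AN1. In the order of the scaled reads the intervals of neighbouring lines overlapped except below GS4, AN15, GS9 and GS32. These intervals cover counting error only, take each read as counted once, and would be too narrow otherwise. The order from AI10 down to AN1 is therefore not resolved between neighbours, whereas the separation of GS4 from the rest far exceeds counting error.

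The libraries themselves were of similar depth. Relative to AN1, the depth recovered from the steps was 0.961 to 1.26, with GS4 the deepest, and correlations between lines were 0.929 to 0.978. All 7 pluripotency markers in the table were above 0 in every line, with Pou5f1, which encodes Oct4, at 615 to 1222 FPKM, so the labelled cell type had its defining genes.

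Between AN F and AN P, no Zscan4 gene differed beyond the spread between lines. Zscan4c was at 0.178 FPKM in AN1, 1.55 in AN9, 4.23 in AN15 and 3.76 in AN20, and at 0.570 in AN2, 1.98 in AN3, 0.350 in AN5, 0.454 in AN6 and 4.28 in AN7. The highest line, AN7, was in AN P and the lowest, AN1, in AN F, so that the AN P range lay within the AN F range but for AN7. Zscan4f was at 0.201 FPKM in AN1, 1.17 in AN9, 2.40 in AN15 and 2.81 in AN20, against 0.104 in AN2, 1.26 in AN3, 0.223 in AN5, 0.362 in AN6 and 2.64 in AN7. Zscan4d was at 0.0458, 1.43, 1.69 and 2.54 FPKM in AN1, AN9, AN15 and AN20, against 0.354, 0.985, 0.113, 0.329 and 2.21 in AN2, AN3, AN5, AN6 and AN7. In both genes AN9, AN15, AN20, AN3 and AN7 were high and the other lines low, with both groups holding lines of each kind. Zscan4e was at 0.0266, 0.520, 1.04 and 1.67 FPKM in the AN F lines in the same order, against 0.0547, 0.723, 0.157, 0.127 and 1.36 in the AN P lines. Zscan4b was at 0.0264, 0.197, 0.700 and 0.599 FPKM, against 0.0816, 0.371, 0.0260, 0.0253 and 0.824. For each of the 5 genes the groups overlapped.

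The means were higher in AN F, with wide errors. The summed FPKM was 6.70 ± 5.01 in AN F (SD, n = 4) and 3.99 ± 4.48 in AN P (SD, n = 5). In limma's moderated test on log2(FPKM + 1), the difference of AN F from AN P was 0.44 (SE 0.53) for Zscan4c, 0.41 (SE 0.39) for Zscan4d, 0.28 (SE 0.32) for Zscan4e and 0.49 (SE 0.43) for Zscan4f. Adjusted p-values by limma were 0.681 to 0.758. The 95% interval for Zscan4c ran from -0.75 to 1.62, which spans changes in both directions. Of the 13185 genes tested, 0 (0%) had an adjusted p under 0.05 by limma, and 792 (6.01%) had an unadjusted p under 0.05. None of the 4 Zscan4 genes that passed the filter on low values was among either. Exact two-sided permutation tests of the difference of means, in which the smallest p is 0.0159, gave p = 0.524 for Zscan4c, 0.381 for Zscan4d, 0.444 for Zscan4e and 0.397 for Zscan4f. Zscan4b, which was under the filter, gave an exact permutation p of 0.540.

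**Figure D2:**
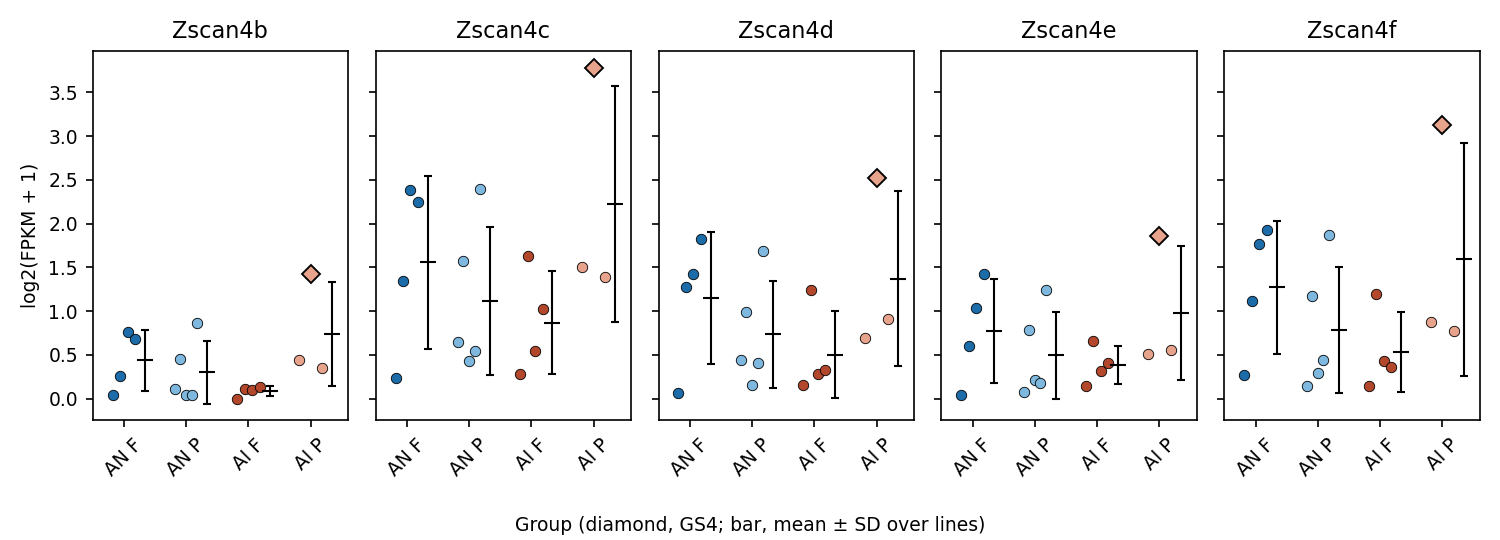
log2(FPKM + 1) of each Zscan4 gene (y axis) in the 4 groups (x axis); each point is a line, the diamond is GS4, and the bar is the mean ± SD over lines. The AN F and AN P points cover nearly the same range, and in AI P the line GS4 lies apart, which for Zscan4c had 12.8 FPKM against 1.83 in AI9 and 1.62 in GS9.

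Among the AN lines the Zscan4 level was lower at passage 7 than at passage 5 or 6, although AN3, the line at passage 5, was not the highest. The summed FPKM was 4.86 to 11.4 in the 5 AN lines at passage 5 or 6 (AN9, AN15, AN20, AN3 and AN7) and 0.478 to 1.30 in the 4 at passage 7 (AN1, AN2, AN5 and AN6). The ranges did not overlap for any of the 5 genes. Zscan4c was at 1.55 to 4.28 FPKM in the former and 0.178 to 0.570 in the latter, Zscan4d at 0.985 to 2.54 and 0.0458 to 0.354, and Zscan4f at 1.17 to 2.81 and 0.104 to 0.362. Zscan4e was at 0.520 to 1.67 and 0.0266 to 0.157 FPKM, and Zscan4b at 0.197 to 0.824 and 0.0253 to 0.0816. Of the 13185 genes tested, 384 (2.91%) had every AN line at passage 5 or 6 above every AN line at passage 7. The opposite order held for 427 (3.24%). The separation of the Zscan4 genes was noticed in these data, and the part of passage in it was not tested. AN F had 3 of its 4 lines at passage 5 or 6 and AN P had 2 of 5. Within passage 5 or 6 the difference of AN F from AN P in mean log2(FPKM + 1) was 0.01 for Zscan4c, 0.17 for Zscan4d, 0.01 for Zscan4e and 0.08 for Zscan4f. Within passage 7, where AN1 was the only AN F line, it was -0.31, -0.27, -0.12 and -0.03 in the same order. With passage as a term in limma's fit, the AN difference was 0.30 (SE 0.39) for Zscan4c and 0.32 (SE 0.30) for Zscan4d. It was 0.20 (SE 0.24) for Zscan4e and 0.38 (SE 0.31) for Zscan4f, with adjusted p-values by limma of 0.698 to 0.786.

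In the AI lines the level did not follow passage in the same way. The 4 AI lines at passage 7 had a summed FPKM of 0.544 in AI3, 1.32 in AI10, 4.07 in AI9 and 5.40 in AI7, GS9 at passage 6 had 3.95, GS32 at passage 13 had 1.99 and GS4 at passage 17 had 29.5. AI7 and AI9 lay above all AN lines of their own passage, and AI10 lay level with the highest of them, AN6. Passages above 7 were held by previously identified AI lines alone, so that passage and derivation cannot be told apart there.

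**Figure D3:**
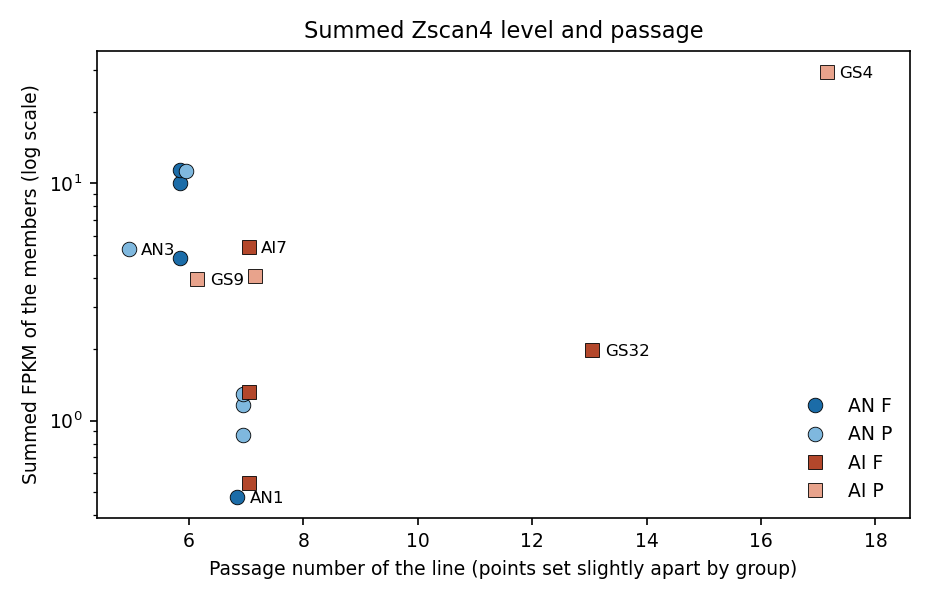
Summed FPKM of the members (y axis, log scale) against the labelled passage number (x axis) for each line, coloured by group. The AN lines at passage 5 or 6 lie at 4.86 to 11.4 and those at passage 7 at 0.478 to 1.30, while the AI lines at passage 7 spread from 0.544 to 5.40.

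Between AI F and AI P, the Zscan4 genes were lower in AI F on average, and this rested largely on GS4. Zscan4c was at 0.219 FPKM in AI3, 2.096 in AI7, 0.453 in AI10 and 1.03 in GS32, against 1.83 in AI9, 12.8 in GS4 and 1.62 in GS9. Zscan4f was at 0.102 in AI3, 1.28 in AI7, 0.342 in AI10 and 0.284 in GS32, against 0.833 in AI9, 7.73 in GS4 and 0.707 in GS9. For both genes the AI F line AI7 lay above AI9 and GS9, so the groups overlapped. Zscan4d was at 0.116, 1.36, 0.214 and 0.258 FPKM in AI3, AI7, AI10 and GS32, against 0.609, 4.72 and 0.880 in AI9, GS4 and GS9. Zscan4e was at 0.107, 0.580, 0.248 and 0.323 FPKM, against 0.429, 2.63 and 0.469. AI7 again lay above AI9 and GS9 in these genes. Zscan4b was listed at 0 in AI3 and was at 0.0824 FPKM in AI7, 0.0672 in AI10 and 0.0917 in GS32, against 0.362 in AI9, 1.68 in GS4 and 0.274 in GS9. For Zscan4b every AI F line lay below every AI P line, as in 3.19% of the genes tested, although the AI F values rest on 0 to 4 reads.

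The summed FPKM was 2.31 ± 2.14 in AI F (SD, n = 4) and 12.5 ± 14.7 in AI P (SD, n = 3). Without GS4, the remaining AI P lines averaged 4.01. In limma's test the difference of AI F from AI P in log2(FPKM + 1) was -1.36 (SE 0.62) for Zscan4c, -0.87 (SE 0.47) for Zscan4d, -0.59 (SE 0.33) for Zscan4e and -1.06 (SE 0.58) for Zscan4f, each with an adjusted p of 0.521. The unadjusted p was 0.0622 for Zscan4c, with a 95% interval from -2.80 to 0.09. Without GS4 the differences were -0.58, -0.30, -0.15 and -0.29 in the same order. By limma 0 (0%) of the 13185 genes had an adjusted p under 0.05 and 1025 (7.77%) an unadjusted p under 0.05, with no Zscan4 gene among them. The exact two-sided permutation p was 0.171 for Zscan4c, Zscan4d, Zscan4e and Zscan4f alike. For Zscan4b it was 0.0571, the smallest that 4 against 3 lines allow, so no exact permutation test here could fall under 0.05.

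Between the iPSC and the ntESC lines, no difference in the Zscan4 genes was detected and their ranges overlapped. The summed FPKM was 0.478 to 11.4 with a median of 4.86 in the 9 AN lines, and 0.544 to 29.5 with a median of 3.95 in the 7 AI lines. In limma's test, with the F and P groups weighted equally, the difference of AI from AN was 0.21 (SE 0.43) for Zscan4c, -0.0050 (SE 0.32) for Zscan4d, 0.05 (SE 0.24) for Zscan4e and 0.03 (SE 0.37) for Zscan4f. Their adjusted p by limma was 0.999. The 95% interval was -0.70 to 1.12 for Zscan4c and -0.48 to 0.57 for Zscan4e. Without GS4 all 4 differences were negative, at -0.18 for Zscan4c, -0.29 for Zscan4d, -0.18 for Zscan4e and -0.35 for Zscan4f, so no direction can be given. By limma 0 (0%) of the genes tested passed at an adjusted p under 0.05 and 464 (3.52%) at an unadjusted p under 0.05, with no Zscan4 gene among them. Exact permutation p-values for the 5 genes were 0.786 to 0.989. Over the 3 comparisons 15 exact permutation tests of single Zscan4 genes were made and 0 gave a p under 0.05. Those of AI F against AI P could not, because their smallest possible p was 0.0571, which Zscan4b reached.

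The difference of F from P was positive in AN and negative in AI for the Zscan4 genes, and the difference between these effects was itself tested. In a limma fit of all 16 lines it was -1.79 (SE 0.85) for Zscan4c, -1.28 (SE 0.64) for Zscan4d, -0.87 (SE 0.49) for Zscan4e and -1.55 (SE 0.75) for Zscan4f, with adjusted p-values of 0.305 to 0.351. The unadjusted p was 0.0531 for Zscan4c. Without GS4 the values were -1.014, -0.71, -0.43 and -0.78. By limma 0 (0%) of the genes tested had an adjusted p under 0.05 for this term, and 2194 (16.6%) an unadjusted p under 0.05, with no Zscan4 gene among them.

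**Figure D4:**
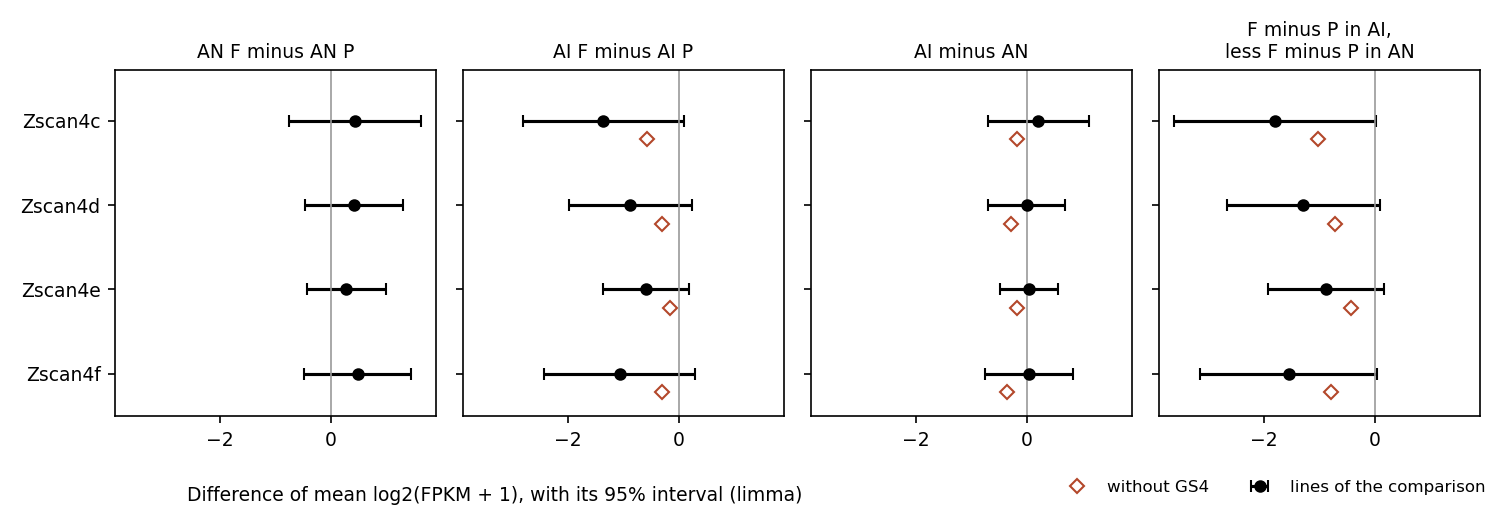
Difference of mean log2(FPKM + 1) (x axis) with its 95% interval from limma for the 4 Zscan4 genes that passed the filter (y axis), in 4 comparisons; open diamonds give the value without GS4. Every interval includes 0, and for Zscan4c in AI F minus AI P the value moves from -1.36 to -0.58 without GS4.

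Other genes of the 2-cell-like state rose and fell over the lines together with the Zscan4 genes. Of 54 such genes listed, 36 had a row, 7 of these were listed at 0 in every line, and 9 reached a mean FPKM of 0.5. The 9 had a median r of 0.926 with the summed members over the 16 lines, and 7 of them had an r over 0.8, against a median of 0.011 over the 13181 other genes. These values share libraries, and some of the genes share sequence with Zscan4, so they are given as a description. Gm2022 was at 0.0766 FPKM in its lowest line, AI3, 3.87 in AN7 and 10.3 in GS4. Gm12794 was at 0.0328 in AN1, 4.71 in AN7 and 10.3 in GS4, and Gm8300 at 0.124 in AI3, 3.21 in AN15 and 9.83 in GS4. Dub1, a deubiquitinase gene, was at 0.609 to 2.43 FPKM outside GS4 and 5.17 in GS4. Pif1, a DNA helicase gene, spanned only 3.03 to 8.65 FPKM and had an r of 0.31. Dux itself was listed at 0 in AI3 and was at 0.343 FPKM in AN7 and 1.19 in GS4, its 2 highest lines, but its mean of 0.183 was under the filter. In limma's tests 0 of the 9 passed at an adjusted p under 0.05 in any of the 4 comparisons. Dub1 alone passed at an unadjusted p under 0.05, lower in AI F at -0.76 (SE 0.32) and for the difference of the effects at -0.86 (SE 0.40). Their median difference was 0.13 in AN, against -0.01 over all genes, and -0.92 in AI, against -0.04 over all genes.

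By the rule of the highest r with the summed members over 16 lines, the most similar genes were Gm2022 (0.983), Zscan4a (0.981), Gm12794 (0.971), Gm8300 (0.969), Gm7102 (0.950), Gm5039 (0.943), Gm5662 (0.926), Dub1a (0.925), Cenpm (0.925) and Galnt6 (0.918). Zscan4a, the remaining gene copy of the family in the table, was at 0.0805 FPKM in AI3, 0.0997 in AN1, 3.79 in AN7 and 8.92 in GS4. Gm7102 was the most abundant gene of the Gm group, with 4.09 FPKM in AN1, 15.99 in AN7 and 52.7 in GS4. Cenpm, which encodes a centromere protein, changed far less, from 13.4 FPKM in AN6 to 25.9 in GS4, and Galnt6, a glycosyltransferase gene, spanned 0.247 to 1.46 FPKM. Within the AN lines alone the r of these 10 genes was 0.905 to 0.990, and over the lines without GS4 it was 0.875 to 0.984. These values are no separate check, because the genes were picked by r over all 16 lines. In all, 18 of the 13181 genes had an r over 0.9. At the other end stood Jph1, which encodes a junctophilin, with an r of -0.908, and Pcdh1, a protocadherin gene, with -0.883. Epdr1 (-0.876), Tmem151a (-0.872) and 2010109K11Rik (-0.859) followed. Jph1 was at 1.75 FPKM in GS4 and 5.12 in AI3, and Pcdh1 at 4.28 in GS4 and 14.2 in AI3.

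**Figure D5:**
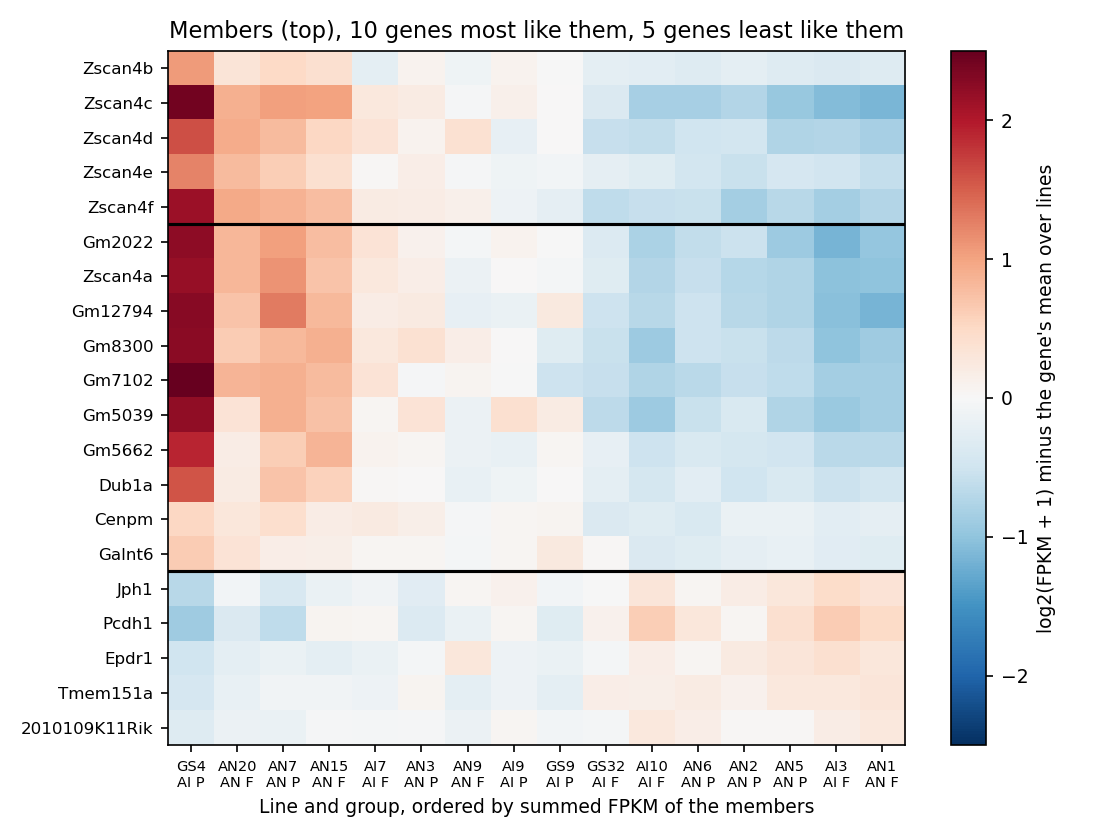
log2(FPKM + 1) less each gene's mean over lines (colour) for the 5 Zscan4 genes, the 10 most similar and the 5 most opposite genes (rows), with lines (columns) ordered by the summed FPKM of the members. The members and the similar genes are highest in GS4 and the opposite genes are lowest there.

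All 22 repressors of the 2-cell-like state on the list passed the filter, with a median r of 0.45 with the members, and 0.26 without GS4. Over all genes outside the members the median r was 0.011, and -0.018 without GS4. Trim28, the corepressor that recruits histone methylation to retroelements, was lowest at 279 FPKM in AN6 and highest at 586 in GS4. Zfp42, a pluripotency gene also called Rex1, was at 70.6 to 166 FPKM outside GS4 and at 445 in GS4. E2f6, a subunit of a repressive Polycomb complex, was lowest in GS4 at 8.9997 FPKM and had an r of -0.77. Smchd1, a chromatin protein of X inactivation, was also lowest in GS4, at 13.1 FPKM. It was highest in AN20, at 24.0, and had an r of -0.02. Zmym2, a zinc finger corepressor gene, was at 10.1 to 21.8 FPKM, Sumo2, the modifier that marks many repressors, at 936 to 2320, and Ncl, which encodes nucleolin, at 642 to 1043. None of the 22 passed at an adjusted p under 0.05 by limma, and at an unadjusted p under 0.05, 3 were higher in AN F and 0 passed in AI. At the same threshold 1 was higher in AI than in AN, and 1 was lower for the difference of the effects. Over all genes, in either direction, 6.01% passed this threshold in AN and 7.77% in AI. The share was 3.52% for AI against AN and 16.6% for the difference of the effects. The median difference of the 22 was 0.14 in AN and -0.11 in AI, against -0.01 and -0.04 over all genes.

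Of the 8 activators listed, 6 had a row and 5 passed the filter. Dppa2 and Dppa4, the partner proteins that act on the Dux promoter, were at 24.6 to 129 FPKM, highest in GS4, and at 40.0 to 149 FPKM, highest in GS9. Dppa3, a maternal factor also called Stella, was at 28.9 to 153 FPKM and highest in GS9, and Whsc2, which encodes a subunit of the negative elongation factor, at 36.3 to 67.7, also highest in GS9. Tbx3, a T-box factor named here after its values were seen, followed the members most closely of the 5, with an r of 0.85 (0.78 without GS4) and its highest level, 18.8 FPKM, in GS4. Dux, described among the 2-cell-like genes, was the activator under the filter. The median r of the 5 with the members was 0.55, against 0.011 over all genes outside the members. None passed by limma at an adjusted p or an unadjusted p under 0.05 in any comparison. Their median difference was 0.13 in AN and -0.51 in AI, against -0.01 and -0.04 over all genes.

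Telomere and recombination genes, to which Zscan4 is linked by its known role, did not follow the members closely. Of 16 such genes 15 passed the filter, with a median r of 0.40. Tert, the catalytic subunit of telomerase, was at 0.970 FPKM in AI10 and 2.76 in AN20, with 2.499 in GS4. Terf1, which binds telomeric repeats, was at 77.6 to 225 FPKM with its highest value in GS9, and Dkc1, a telomerase-associated protein gene, was at 123 to 253, also highest in GS9. Pot1a and Pot1b, which cap single-stranded telomere ends, were at 7.03 to 15.7 and 3.07 to 4.84 FPKM. Atrx and Blm, a chromatin remodeller and a helicase gene, were highest in AN20, at 62.9 and 31.2 FPKM. In limma's tests 0 of 15 passed at an adjusted p under 0.05, and Tert and Pot1a were lower in AI F at an unadjusted p of 0.0194 and 0.0384, with differences of -0.47 (SE 0.16) and -0.46 (SE 0.18). At this threshold 1 of the 15 was also lower in AI than in AN, and 4 were lower for the difference of the effects. Over all genes, in either direction, 7.77% passed it in AI, 3.52% for AI against AN and 16.6% for the difference of the effects. The median difference of the 15 was 0.08 in AN and -0.25 in AI, against -0.01 and -0.04 over all genes.

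Of 10 oocyte and early embryo genes outside the 2-cell-like set, 2 passed the filter. Zp3, a protein of the egg coat, was at 0.780 FPKM in AI3 and 4.201 in GS4, with an r of 0.84 with the members, and Npm2, a histone chaperone of the egg, at 0.365 in AI3 and 1.43 in GS4. Obox6 stayed at or under 0.229 FPKM in every line. Neither passed at an adjusted p under 0.05 by limma in any comparison. The difference of AI F from AI P was -0.78 (SE 0.29) for Zp3 and -0.54 (SE 0.11) for Npm2. Their unadjusted p by limma was 0.0292 and 0.00129, and the adjusted p was 0.521 for both. Npm2 also had an unadjusted limma p of 0.0047 for AI against AN, with a difference of 0.28 (SE 0.08), and 0.0035 for the difference of the effects, at -0.58 (SE 0.17).

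Markers of other cells in the cultures moved the other way in part, and their part in the Zscan4 levels was not tested. All 10 fibroblast markers, which would also report feeder cells, were above 0 in every line. Their summed FPKM was 468 to 957 in AN F, 606 to 1234 in AN P, 592 to 1321 in AI F and 247 to 1072 in AI P, with 314 in GS4. The log2 of this sum had an r of -0.44 with that of the members over 16 lines, and -0.25 without GS4. In AI the median difference of the 10 markers was 0.98 higher in AI F, against -0.04 over all genes. By limma 0 of the 10 passed there at an adjusted p under 0.05. At an unadjusted p under 0.05, 1 was higher, against 458 of the 13185 genes tested. For the difference of the effects 6 were higher at this unadjusted threshold, against 1095 of the 13185 genes. The 6 primitive endoderm markers summed to 35.7 to 61.3 FPKM in AN F, 45.6 to 74.2 in AN P, 40.3 to 75.2 in AI F and 17.4 to 59.7 in AI P (r = -0.44 with the members). Most of this sum was the collagen gene Col4a1, at 13.5 to 67.3 FPKM, while Gata4, Gata6, Sox17 and Sox7 stayed at or under 1.99. Among the markers that passed the filter, r was -0.42 for Col4a1, -0.74 for Dab2, -0.34 for Gata6 and -0.01 for Gata4. The 5 trophoblast markers, of which Elf5 was at 0 in 4 lines, summed to 6.83 to 18.5, 7.47 to 44.7, 5.25 to 40.9 and 6.55 to 16.9 FPKM in the same order of groups (r = -0.21). The 6 markers of the APC donor cells summed to 14.3 to 26.0, 19.9 to 23.5, 16.5 to 34.2 and 13.9 to 20.9 FPKM (r = -0.53). Pparg, which defines the fat lineage, was at 0.33 FPKM or less, but the others were higher. Ly6a was at 7.84 to 22.0 FPKM, Cd34 at 1.77 to 4.60, Fabp4 at 0.787 to 3.66, Pdgfra at 0.804 to 2.54 and Cebpa at 0.576 to 2.33. The 7 pluripotency markers summed to 1322 to 1443, 1076 to 1578, 1117 to 1426 and 1277 to 1867 FPKM (r = 0.40). In each of these lists 0 genes passed at an adjusted p under 0.05 by limma in any comparison.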

How the data were processed

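The data were single-end RNA-seq of 50 bases from 16 lines, with 1 library per line. Per the submitters' processing notes, TopHat2 2.1.0, HTSeq and Cufflinks 2.2.1 were used with mm9, and the authors deposited 1 FPKM value per gene name and line. How reads matching several Zscan4 copies were treated is not given in the sources used here. F and P were assigned by line name from the study's tetraploid complementation results. Values were taken as log2(FPKM + 1), which understates changes of low genes. Genes averaging 0.5 FPKM or more were fitted with limma 3.58.1 in R 4.3.3 (mean-variance trend, Benjamini-Hochberg, threshold 0.05), AN on 9 lines, AI on 7 and the rest on 16. Single members were compared by two-sided exact permutation in Python 3.11.15 (scipy 1.17.1), with p as 2 times the smaller tail. The fits were tested on simulated data. Reads were recovered from the steps between FPKM values. Of 5045 genes with a mean FPKM of 0.02 to 1, 87.1% came out whole within 0.03 of a read. Sequences came from the mm9 annotation and RefSeq.

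The members, the lists and the tests were chosen with earlier results of these data known. Named genes were all members, the 10 tested genes with the highest and the 5 with the lowest r with the summed members, and of each list any gene past the threshold, the 3 with the highest mean and the 2 with the smallest p in the AN and in the AI comparison. Dux and the cell type markers named in the text were chosen after their values were seen. Alternatives were another pseudocount, filter, normalization, trend or prior, passage or derivation as a term, an unadjusted p, a fit of all lines and leaving out lines. Values within passages were added after seeing the data.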

Additional observations from a re-analysis of the deposited data

Results flagged for a closer look

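GS4 lay far from the other AI lines for every Zscan4 gene. Its FPKM was 12.8 for Zscan4c against 0.219 to 2.096 in the other 6 AI lines, 7.73 for Zscan4f against 0.102 to 1.28, and 4.72 for Zscan4d against 0.116 to 1.36. It was 2.63 for Zscan4e against 0.107 to 0.580, and 1.68 for Zscan4b against 0 to 0.362. The summed level was 29.5 against 0.544 to 5.40. Within AI F, AI7 stood apart for Zscan4d, at 1.36 FPKM against 0.116 to 0.258 in AI3, AI10 and GS32. In each of these cases the gap to the nearest line, as a share of the range of the group, passed Dixon's 95% limit. For normally distributed values chance gives about 1 such line in 20 groups, or 1.5 in the 30 groups examined, and 7 were found. The gaps were taken on FPKM and not on log2(FPKM + 1), so this rate may not hold here. On the log2 scale the summed level was 4.93 in GS4, 2.68 in AI7 and 0.626 in AI3. The 6 cases of GS4 concern 1 library and near-identical genes, so they are not independent.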

How the results depend on the processing

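The count of Zscan4 genes past the adjusted threshold of limma was 0 in all 4 comparisons under every alternative that tested them. With a minimum mean FPKM of 5 no Zscan4 gene was tested. Over all genes the adjusted count was 0, and with an unadjusted p it was 792 in AN, 1025 in AI, 464 for AI against AN and 2194 for the difference of the effects. Leaving out 1 line gave 0 to 1 genes in AN, 0 to 5 in AI, 0 to 1 for AI against AN and 0 to 651 for the difference of the effects (651 without AI9). Without the previously identified AI lines, 9 genes differed between AI and AN. The AN difference was negative within passage 7 (Zscan4c -0.31, Zscan4d -0.27, Zscan4e -0.12, Zscan4f -0.028), an alternative added after seeing the data. With passage as a term the AN difference stayed positive, at 0.30, 0.32, 0.20 and 0.38 in the same order. With 1 line left out it kept its sign, from 0.16 (without AN15) to 0.88 for Zscan4c, 0.19 to 0.78 for Zscan4d, 0.06 to 0.52 for Zscan4e and 0.27 to 0.82 for Zscan4f, lowest without AN20 for the last 3 and highest without AN1 for all 4. With a pseudocount of 0.1 the AN difference was 0.61, 0.67, 0.64 and 1.00 for Zscan4c, Zscan4d, Zscan4e and Zscan4f, the AI difference -2.11, -1.79, -1.30 and -1.95, and the difference of the effects -2.72, -2.46, -1.95 and -2.95. The AI difference kept its sign in every alternative that gave a value and ranged from -1.77 to -0.58 for Zscan4c with 1 line left out. The difference of AI from AN had no stable sign. With 1 line left out it was -0.18 to 0.42 for Zscan4c, -0.29 to 0.17 for Zscan4d, -0.18 to 0.16 for Zscan4e and -0.35 to 0.24 for Zscan4f. With passage as a term it was -0.18 for Zscan4c, -0.16 for Zscan4e and -0.31 for Zscan4f. Without the previously identified lines it was -0.18, -0.19 and -0.30. For Zscan4d it was 0.0061 with a pseudocount of 0.1, 0.040 with quantile normalization and 0.32 in the lines of passage 7 alone, also added after seeing the data. The causes were not tested. No paired analysis was possible because the replicate numbers only name lines. Depth limits the lowest lines, where the 5 genes rest on 21 to 68 reads, or fewer if a read was counted at several copies.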
